A study of Mus musculus with 8 samples.

Results

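Integrins and laminins connect a muscle stem cell (MuSC) to the basement membrane under which it rests. The genes described here are the 37 protein-coding genes of the mouse that encode integrin or laminin subunits, out of 21938 protein-coding genes in the GENCODE vM21 annotation. They were defined by symbol, as Itga, Itgb, Lama, Lamb or Lamc followed by a number, with Itga2b included. The lettered alpha genes Itgad, Itgae, Itgal, Itgam, Itgav and Itgax belong to them as well. This gave 18 integrin alpha, 8 integrin beta and 11 laminin genes. The family itself was chosen with earlier results of these data known. The values below give the position of H3K56ac (histone H3 acetylated at lysine 56) around and along these genes.

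The study asked where H3K56ac lies in MuSCs and how the loss of SIRT6, a deacetylase of this residue, alters it. It profiled freshly isolated MuSCs of C57BL/6 mice by chromatin immunoprecipitation and sequencing, with 2 H3K56ac libraries and 2 input libraries (chromatin without immunoprecipitation) from wild-type Control mice and the same numbers from Sirt6mKO mice, in which Cre expressed from Pax7 deletes a floxed Sirt6 in the muscle lineage. The data used here are 1 list of 105600 merged peaks, with a start and an end for each and no value per library, so neither genotype nor replicate can be separated, no spread between replicates can be given, and the list does not carry the depth behind a peak. In the words used below, a promoter peak of a gene is a merged peak that overlaps the 3 kb on either side of any annotated transcription start site (TSS) of that gene by at least 1 bp, and the principal TSS is that of the gene's principal transcript in GENCODE.

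An integrin is a heterodimer of 1 alpha and 1 beta chain that spans the membrane, binds matrix or a neighbouring cell outside, and couples to actin inside. A laminin is a secreted heterotrimer of 1 alpha, 1 beta and 1 gamma chain, and laminin networks form the sheet of the basement membrane to which integrins and dystroglycan attach. In muscle the main laminin carries the alpha 2 chain (Lama2), whose loss causes a congenital muscular dystrophy, and the main laminin receptor of the integrin family is alpha 7 beta 1 (Itga7 and Itgb1). Integrin alpha 7 is also a surface antigen by which MuSCs are sorted. The study sorted cells that were negative for Sca1, CD45 and CD31 and then positive for integrin alpha 7 and CD34, or took cells with a Pax7-driven reporter, so the mark at Itga7 was read in cells that may have been picked for its protein.

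Of the 37 subunit genes, 27 had a promoter peak, or 73.0%, beside 67.8% of all protein-coding genes. At least 1 annotated TSS lay inside a peak in 26 of them, beside 62.1% of all coding genes, and the principal TSS did so in 24, beside 57.4%. These shares are near the background and are no result about the family as a whole. By chain, a promoter peak stood at 10 of 11 laminin genes, 6 of 8 integrin beta genes and 11 of 18 integrin alpha genes. The 8 subunits typical of leukocytes or platelets (Itga2b, Itgad, Itgae, Itgal, Itgam, Itgax, Itgb2 and Itgb7) had 1 gene with a promoter peak, whereas 26 of the 29 other subunit genes had one. These are counts in a single merged list, and no difference between them was tested.

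**Figure D1:**
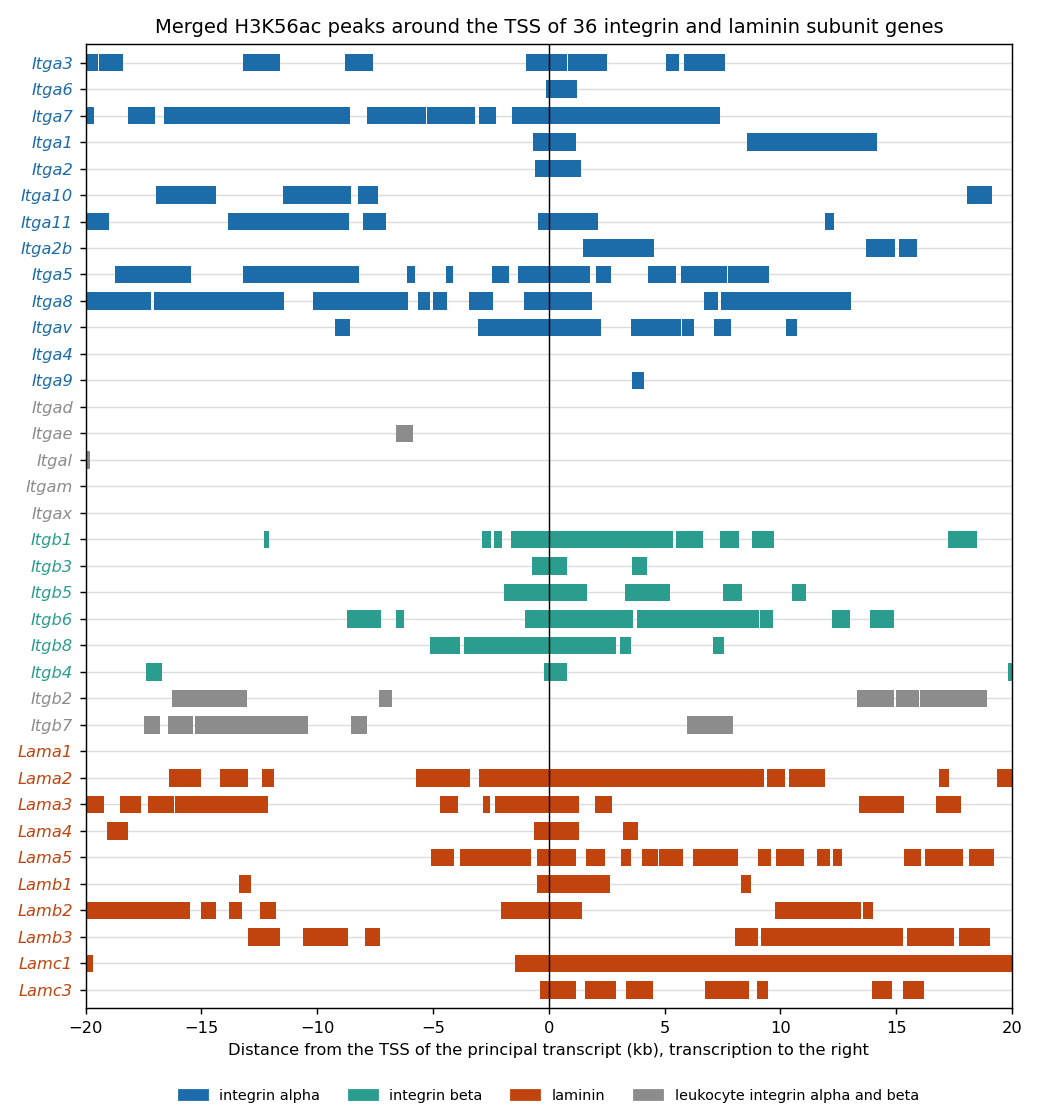
Merged H3K56ac peaks (bars) within 20 kb of the principal TSS of 36 of the subunit genes (rows), drawn by distance in kb with transcription to the right and coloured by family. The TSS line crosses a bar in 23 of the 36 rows, the row of Lamc1 is filled from just upstream to the right edge, and the rows of Itga4, Itgad, Itgam, Itgax and Lama1 hold no bar.

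The promoters of 3 genes are printed here. Lama2 was chosen for its wide promoter peak, Itga7 as the antigen of the sort and Lama1 as a gene without a promoter peak. Each run is the 250 bases before the principal TSS, 5′ to 3′ on the gene's strand, read from the GRCm38 (mm10) reference assembly, with every CpG dinucleotide in capitals. Lama2, the alpha 2 chain (chr10:27616844-27617093, minus strand), had a promoter peak of over 10 kb. Itga7 (chr10:128933568-128933817, plus strand) is the muscle laminin receptor, and Lama1, the alpha 1 chain of the early embryo (chr17:67697009-67697258, plus strand), had no peak at all. The Lama2 run overlaps 3 annotated exons, and the others overlap no exon.
Lama2: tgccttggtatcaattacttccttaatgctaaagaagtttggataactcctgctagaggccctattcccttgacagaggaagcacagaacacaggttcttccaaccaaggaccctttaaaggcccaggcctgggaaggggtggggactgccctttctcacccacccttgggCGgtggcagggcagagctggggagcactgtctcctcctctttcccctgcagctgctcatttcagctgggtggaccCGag
Itga7: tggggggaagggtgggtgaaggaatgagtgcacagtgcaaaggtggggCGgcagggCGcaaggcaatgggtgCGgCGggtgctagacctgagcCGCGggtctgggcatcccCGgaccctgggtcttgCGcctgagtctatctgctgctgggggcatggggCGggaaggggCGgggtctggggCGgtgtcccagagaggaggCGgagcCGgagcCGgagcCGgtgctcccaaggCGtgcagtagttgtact
Lama1: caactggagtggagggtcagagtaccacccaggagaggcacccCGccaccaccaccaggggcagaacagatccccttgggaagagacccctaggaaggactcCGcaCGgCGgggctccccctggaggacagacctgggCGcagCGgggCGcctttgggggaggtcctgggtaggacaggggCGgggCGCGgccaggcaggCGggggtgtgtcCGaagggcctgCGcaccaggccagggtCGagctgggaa

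The runs hold 2 CpGs in Lama2, 16 in Itga7 and 14 in Lama1. Among these 3, many CpGs upstream of the TSS occurred under a wide peak (Itga7) and where no peak was listed (Lama1). The widest of the 3 genes' promoter peaks lay over the run with the fewest CpGs (Lama2). The genes were picked, so nothing is read from them about CpG content and the mark.

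Among receptors, the alpha chains that bind laminin are encoded by Itga3, Itga6 and Itga7, and all 3 had the principal TSS inside a peak. Itga7 (chr10:128933818-128958282, 24.5 kb) carried the wide one. Its promoter peak, chr10:128932219-128941195, measured 8977 bp and ran from 1599 bp upstream to 7377 bp downstream of the TSS, over exons 1 to 4 of 25. That width was the third among the subunit genes and above 94.7% of the coding genes with a promoter peak. It was also the only peak over the gene, and it covered 30.2% of the gene's length, which 328 of the 2498 other coding genes within 20% of that length reached. A narrower peak of 741 bp lay further upstream, at -3026 to -2286 bp from the TSS. More peaks followed beyond it, among them a wide one at -16612 to -8594 bp. With intervals less than 1 kb apart joined, the promoter peak belonged to a region of 25.6 kb with 6 peaks, most of it upstream of the gene.

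Itga3 and Itga6 encode the laminin receptor chains best known from epithelia and from haematopoietic and neural progenitors, and their promoter peaks were narrow, with 1769 bp at Itga3 and 1358 bp at Itga6. Both widths lie below the lower quartile of 2242 bp for coding genes with a promoter peak. The Itga3 peak ended 800 bp downstream of the TSS, and a second promoter peak of 1684 bp ran from 828 to 2511 bp. With intervals less than 1 kb apart joined, these 2 formed a region of 3.48 kb, whereas the Itga6 peak stayed at 1358 bp. The narrow width of Itga3 thus rests on a short gap. Itga6 had 2 peaks in 112.8 kb, which covered 1.63% of the gene. Itgb4, the beta chain that pairs with alpha 6 in epithelial hemidesmosomes, had a promoter peak of 1008 bp. The alpha 7 beta 1 pair thus had promoter peaks of 8977 and 6996 bp, and the alpha 6 beta 4 pair of 1358 and 1008 bp. The pairs alpha 3 beta 1 (1769 and 6996 bp) and alpha 6 beta 1 (1358 and 6996 bp) joined a peak listed as narrow to the wide one of Itgb1. The pairs share chains, and no difference between them was tested.

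Itgb1 (chr8:128685654-128733200, 47.5 kb), the beta chain shared by the largest group of integrins, had a promoter peak of 6996 bp at chr8:128684018-128691013. The peak reached from 1636 bp upstream of the TSS to 5359 bp into the gene, where it covered exon 1 and the start of intron 1. In all, 9 peaks lay over Itgb1 and covered 33.6% of it, a share that 171 of 1888 other coding genes of like length reached. A second cluster of 4 peaks stood 39986 to 47522 bp from the TSS, at the 3′ end of the gene. Between 9702 bp and that cluster a single peak lay, at 17227 to 18498 bp.

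**Figure D2:**
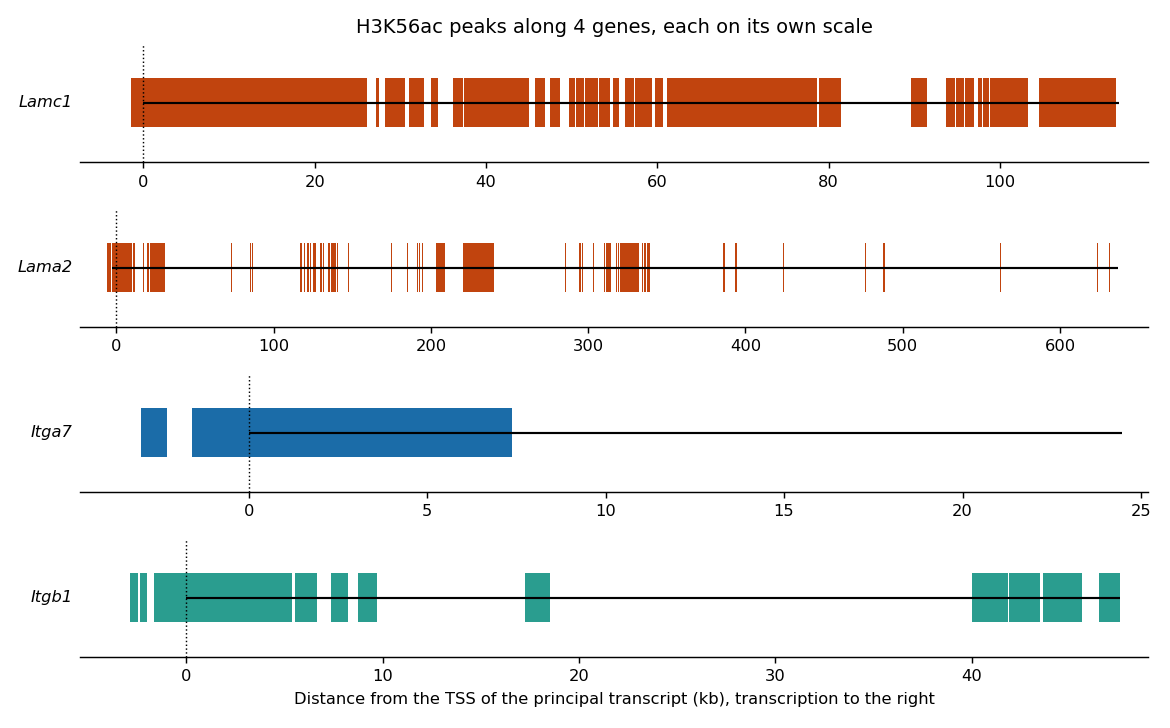
H3K56ac peaks (bars) along Lamc1, Lama2, Itga7 and Itgb1, by distance in kb from the principal TSS (dotted line), each gene (black line) on its own scale. Bars fill 79.8% of Lamc1, lie mostly in the first 2 of 3 equal parts of Lama2, form 1 block at the start of Itga7 and stand at both ends of Itgb1.

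The alpha chains that recognise the RGD sequence of fibronectin and vitronectin are encoded by Itga5, Itga8, Itgav and, on platelets, Itga2b. Itgav (chr2:83724397-83806916), the partner of several beta chains, had the widest promoter peak of these, 5276 bp at chr2:83721357-83726632, and it held 6 of the 8 annotated TSSs of the gene. The 5 peaks over Itgav covered 7.40% of the gene, and all lay in intron 1 or over exon 1, within 10706 bp of the TSS. Itga5, the fibronectin receptor chain, had a promoter peak of 3152 bp and 5 peaks that covered 32.9% of its 22.5 kb. Itga8 had a promoter peak of 2920 bp, and its widest peak, 5591 bp, lay 7438 to 13028 bp inside the gene in intron 2.

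Itga2b, the platelet alpha chain CD41, was the exception in the leukocyte and platelet group. Its widest promoter peak of 3075 bp (chr11:102465353-102468427) lay 1456 to 4530 bp downstream of the principal TSS and spanned exons 2 to 11, and the principal TSS itself lay in no peak. The peak reaches the 3 kb window of the principal TSS without covering it. Of the platelet marker genes, Pf4 and Gp9 had a promoter peak (1602 and 1176 bp) and Gp1ba had none. What this says of platelets in the sorted cells was not tested.

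The beta chains that pair with alpha v are encoded by Itgb3, Itgb5, Itgb6 and Itgb8, and all 4 had the principal TSS inside a peak. Itgb8 (chr12:119158022-119238802), an activator of latent TGF-beta, led in width with 6601 bp at chr12:119235883-119242483, centred near the TSS, with 3681 bp upstream and 2919 bp downstream. Its 7 peaks covered 8.88% of the gene, a share that 574 of 1362 other coding genes of like length reached. Itgb5 had a common width at the promoter, 3581 bp, but held 30 peaks along 119.7 kb that covered 36.5% of it, and 101 of 1055 like-length genes reached that share. Itgb6, a chain of epithelia, had a promoter peak of 3085 bp, with 13 of its 17 peaks in intron 1. Itgb3 had 1536 bp at the promoter and 2 peaks in all.

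The collagen receptor chains are encoded by Itga1, Itga2, Itga10 and Itga11, and promoter peaks at Itga1 (1856 bp), Itga2 (1979 bp) and Itga11 (2575 bp) were all narrower than the coding median of 3430 bp. The Itga1 peak also holds the TSS of the overlapping gene Gm49395, and the widest peak in Itga1, 5626 bp in intron 1, lies over the TSS of the nested gene Pelo. Itga2 and Itga1 are neighbours on chromosome 13, and 20 peaks covered 11.8% of the 268.9 kb from one to the other. Itga10 (chr3:96645584-96664519), the chondrocyte collagen receptor chain, had no promoter peak, and its single peak of 1078 bp lay at the 3′ end of the gene.

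Itga4 and Itga9 encode the related alpha chains that bind VCAM1, osteopontin and tenascin. Itga4 (chr2:79255426-79333123), the alpha 4 chain of VLA-4, had no peak over the gene, and the nearest peak to any of its 5 TSSs was 64418 bp away. Itga9 (chr9:118606690-118901003) had 11 peaks that covered 3.30% of its 294.3 kb, and none lay over a TSS. Its promoter peak by the rule was only 531 bp wide and lay 230309 bp downstream of the principal TSS, near the start of a transcript annotated inside the gene. Neither gene thus had a listed peak at its principal TSS. Vcam1, which encodes their ligand, had a promoter peak of 12012 bp and was covered over 88.3% of its length.

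The leukocyte chains had no promoter peak in any of 7 genes. Itgam, Itgax and Itgad, the alpha chains of the myeloid receptors CD11b, CD11c and CD11d, are neighbours on chromosome 7 (chr7:128062640-128118491, chr7:128129547-128150657 and chr7:128154376-128223816). Not one peak lay in the 161.2 kb from the first to the last, and the nearest peaks stood 57.5 kb before and 11.8 kb after. Itgal (chr7:127296260-127335138), the alpha chain of LFA-1, had 2 peaks in its 3′ part that covered 9.73% of the gene, and the peak nearest to any of its TSSs was 14401 bp away. In Itgae (chr11:73090583-73147446), which encodes CD103 of intraepithelial lymphocytes, 4 peaks covered 9.28%, and the widest, 3238 bp, lay over the TSS of the nested gene Haspin.

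The beta chains of the same receptors had peaks only inside the gene. Itgb2 (chr10:77530252-77565708), the common beta chain CD18, had 3 peaks between 13306 and 18914 bp from the TSS that covered 15.4% of the gene. Itgb7 (chr15:102215995-102231944), the partner of alpha 4 and alpha E on lymphocytes, had 1 peak of 1968 bp that began 5980 bp inside the gene. So 4 of the 7 chains held peaks in the gene body, and none of those peaks reached a promoter window. The sort removed CD45-positive cells. Of 6 leukocyte marker genes 2 had a promoter peak (Cd68 with 2636 bp and Csf1r with 1786 bp), and Ptprc, which encodes CD45, had no peak anywhere in 112.8 kb. All 7 MuSC marker genes (Pax7, Myf5, Myod1, Calcr, Cdh15, Cd34 and Megf10) had one, the narrowest of 2720 bp (Myod1), the widest of 33642 bp (Megf10) and that of Pax7 of 21301 bp. Of the markers of other cells, 2 of 4 endothelial, 2 of 3 fibro-adipogenic and 1 of 4 epithelial genes had a promoter peak. The share over all coding genes was 67.8%. The marker lists hold 3 to 7 genes each, too few to be read against that share. What they say of the purity of the sorted cells was not tested.

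**Figure D3:**
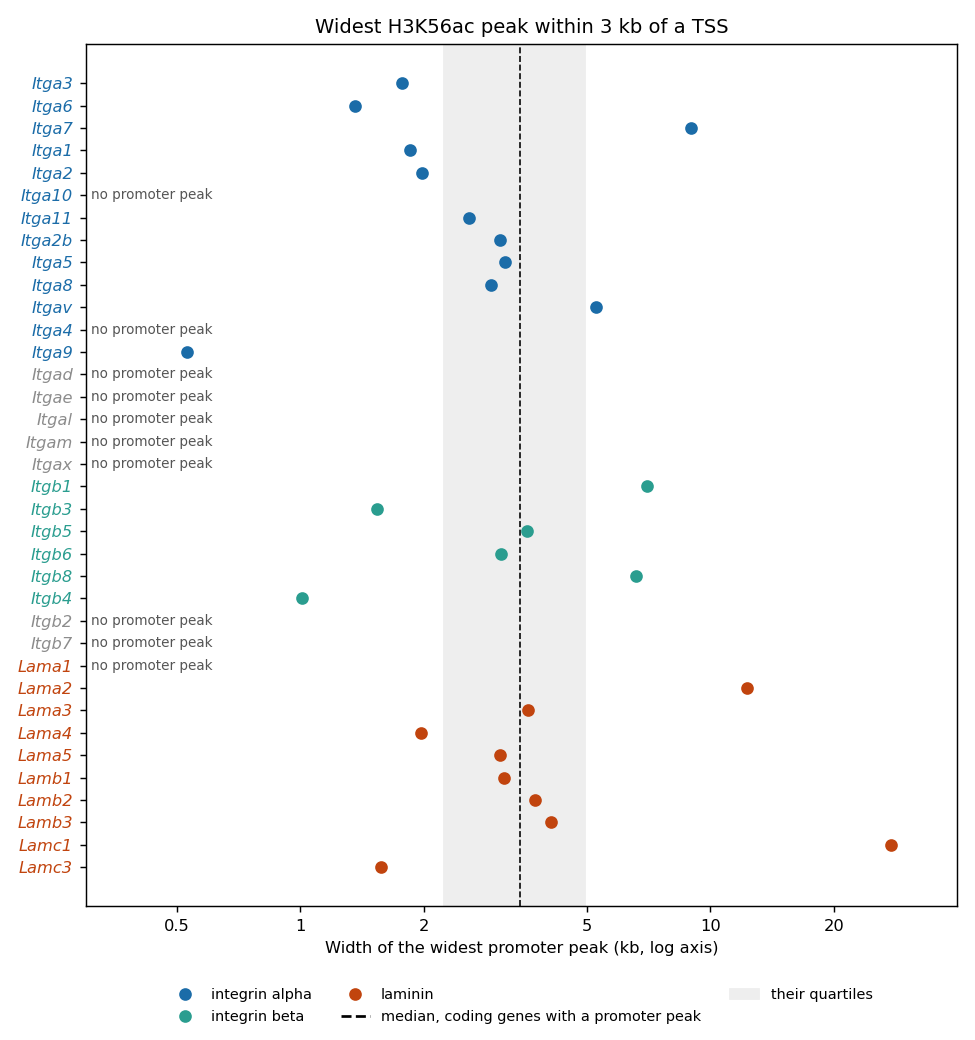
Width of the widest promoter peak of 36 of the subunit genes (dots, kb, log axis), by family, beside the median of 3430 bp (dashed line) and the quartiles (grey band) of coding genes with a promoter peak. Lamc1 and Lama2 lie above 10 kb, 16 of the 26 dots lie left of the dashed line, and the 10 genes marked in words had no promoter peak.

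Single genes stood out in width, as some also did in the covered share of the gene. The widths are those of both genotypes merged, and the paper reports a global increase of H3K56ac peaks in Sirt6mKO MuSCs. How much of a width comes from either genotype cannot be told. The 27 genes with a promoter peak had a median width of 3085 bp for the widest, beside 3430 bp for the 14872 coding genes with one. The order of these medians turned when intervals less than 1 kb apart were joined (5235 bp beside 4302.5 bp) and when peaks over another coding TSS were left out (3110.5 bp beside 2937 bp), so no direction is read from them. A promoter peak of at least 5 kb occurred in 7 of the 37 genes, among them Lamc1, Lama2, Itga7, Itgb1, Itgb8 and Itgav, beside 16.5% of coding genes. One of at least 10 kb occurred in Lamc1 and Lama2, 2 genes, beside 2.59%. The first count is near the background, and 2 genes are too few to be read against it. Just under the 5 kb line stood Lamb3 with 4076 bp, and just above it Itgav with 5276 bp.

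Among the ligands, Lamc1 (chr1:153218922-153332786, 113.9 kb), the gamma chain of most laminins, carried the widest promoter peak of the 37 genes. The peak chr1:153306655-153334241 measured 27587 bp, wider than that of 99.8% of coding genes with a promoter peak. It began 1455 bp upstream of the TSS and ran 26131 bp into the gene, over exon 1 and the first part of an intron 1 of 69.4 kb that was covered to 86.1%. In all, 29 peaks covered 79.8% of Lamc1, a share reached by 7 of the 1113 other coding genes of like length. Coverage extended along the whole gene, and the 3 equal parts from the 5′ end held 36.5%, 36.4% and 27.1% of the covered bases.

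Lamc3, the gamma 3 chain, was sparser than Lamc1, with a promoter peak of 1576 bp, 7 peaks and 13.4% of its 59.2 kb covered. Of its 28 exons 2 touched a peak, and the covered bases all lay in the 5′ one of 3 equal parts of the gene.

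Of the laminin alpha genes, Lama2 (chr10:26980036-27619758) is the longest, 639.7 kb. Its promoter peak chr10:27607569-27619855 measured 12287 bp, reached 3012 bp upstream and 9274 bp downstream of the principal TSS and held 5 of the 7 annotated TSSs. The gene held 69 peaks, more than any other subunit gene, yet they covered only 15.9% of it. Coding genes of that length are sparsely covered, with a median of 1.84%, and 12 of 116 reached the share of Lama2. The widest peak in Lama2 was not at the promoter: chr10:27377762-27396713 measured 18952 bp and lay 220130 to 239081 bp from the TSS, with its middle in intron 4. Only 4.44% of the covered bases fell in the last of 3 equal parts of the gene.

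Lama3 (chr18:12333819-12583013), the epithelial alpha 3 chain, had a promoter peak of 3598 bp (chr18:12331508-12335105) and 23 peaks that covered 22.6% of the gene, which 73 of 431 like-length genes reached. Wider peaks lay inside it, up to 7558 bp at 77422 to 84979 bp from the TSS with its middle in intron 8. Lama5, the widely expressed alpha 5 chain, had the principal TSS in a peak of 1671 bp and a wider one of 3073 bp just upstream of it. Its 18 peaks covered 36.8% of the gene. Lama4, the alpha chain of vessels and nerve, was the sparse one, with a promoter peak of 1971 bp, 2 peaks and 1.33% of 144.7 kb covered. Lama1 (chr17:67697259-67822647, 125.4 kb) had no peak, and the nearest to any of its TSSs was 51516 bp away.

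Among the laminin beta genes, all 3 had a promoter peak. Lamb1, the common beta chain, had a promoter peak of 3136 bp and 13.7% of its 64.4 kb covered. Lamb2 (chr9:108479736-108490530), the beta chain of the neuromuscular junction, had its principal TSS in a peak of 3536 bp. The slightly wider promoter peak of 3733 bp (chr9:108489620-108493352) lay at its 3′ end over the TSS of the neighbouring Usp19, so it cannot be assigned to Lamb2 alone. The 2 peaks over Lamb2 covered 23.0% of the gene, and 660 of 2279 others of like length reached that share.

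Lamb3 (chr1:193207699-193343878), a beta chain of epithelial laminin, needs the same care. The annotated gene spans Hsd11b1 and G0s2, and its principal TSS lay in no peak. The widest promoter peak, chr1:193274498-193278573 with 4076 bp, lay upstream of the principal TSS, at -27495 to -23420 bp. Peaks covered 58.4% of the annotated gene in 41 pieces, which 23 of 919 like-length genes reached. The span of the principal transcript alone was covered to 59.6%. Of its 41 peaks, 3 held a TSS of Hsd11b1 or G0s2.

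Read as trimers, the muscle laminins had a promoter peak at every chain. This follows from the count by gene, since 10 of 11 laminin genes had a promoter peak and only Lama1 lacked one. It is not particular to the muscle laminins, because the epithelial chains Lama3 (3598 bp) and Lamb3 (4076 bp) had promoter peaks too. The share over all coding genes was 67.8%. Laminin-211 (Lama2, Lamb1 and Lamc1) and laminin-221 (Lama2, Lamb2 and Lamc1) had the principal TSS of all 3 genes inside a peak, and so did laminin-411, laminin-511 and laminin-521. Laminin-111, the trimer of the embryo, had a promoter peak at 2 of 3 chains, since Lama1 had no listed peak. The trimers share chains, and Lamc1 is in all 6, so they are not independent of each other.

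**Figure D4:**
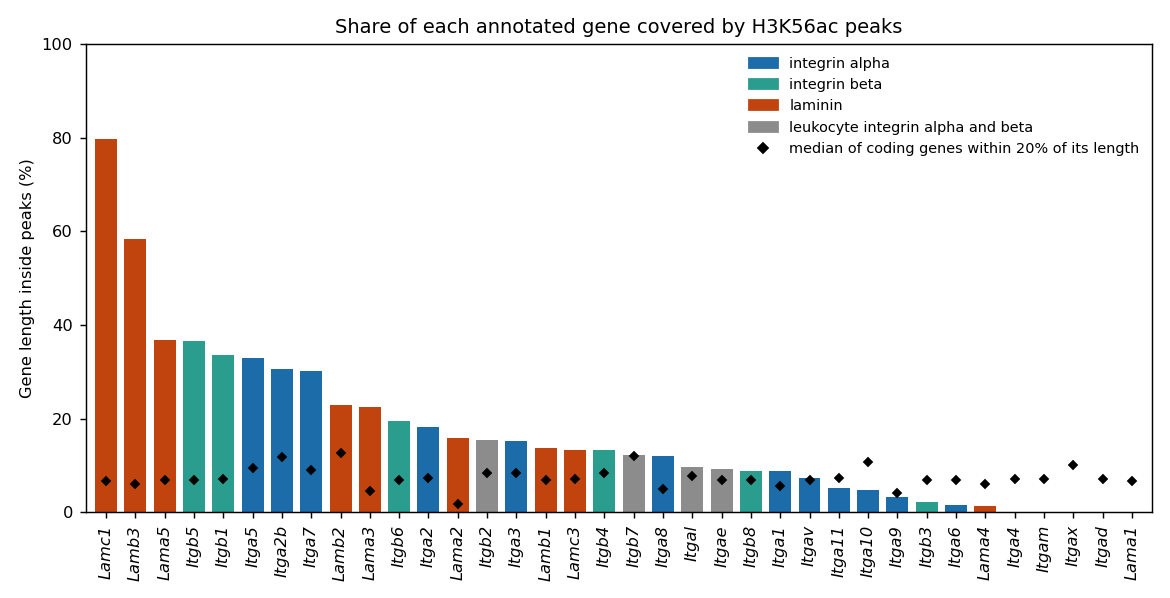
Percent of the annotated gene that lies inside H3K56ac peaks (bars, coloured by family) for 36 of the subunit genes, in falling order, with the median of other coding genes within 20% of its length (diamonds). Lamc1 and Lamb3 reach 79.8% and 58.4%, 25 bars end above their diamond, and 5 genes have no bar.

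Over all 37 genes the median covered share of the gene was 13.3%, beside 7.82% over all coding genes. A share of at least 50% occurred in 3 subunit genes, all laminin chains and among them Lamc1 and Lamb3, beside 9.90% of coding genes. No peak lay over 5 of the 37 genes (Itga4, Itgad, Itgax, Itgam and Lama1), beside 30.9% of coding genes. Subunit genes are long, with a median of 64.4 kb beside 17.4 kb for coding genes, and length moves both measures. Set against coding genes of like length, 26 subunit genes lay above the median share and 11 below, and 6 lay at or above the 90th percentile, among them Lamc1, Lamb3, Lama5, Itgb1 and Itgb5.

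Where the mark lay within the genes was also described. In 19 of the 32 genes with any coverage, the 5′ one of 3 equal parts held the most covered bases, beside 72.8% of the 15151 coding genes with coverage. Intron 1 was covered to a higher share than the other introns in 23 of the 37 genes, beside 63.2% of coding genes with 2 or more introns. The median covered shares of intron 1 and of the other introns were 20.98% and 10.8% in subunit genes and 27.7% and 0% in those coding genes. Where a peak held the principal TSS, it reached further downstream than upstream in 18 of 24 subunit genes, beside 65.3% of the 12598 coding genes with such a peak. The longest reach was that of Lamc1, and the exceptions were Itga3, Itgav, Itgb5, Itgb8, Lama3 and Lamb2. In 18 of the 32 genes with a peak, the widest peak of all was not a promoter peak, as in Lama2, beside 14.3% of the 15512 coding genes with a peak. Among the 1390 other coding genes with a peak and a length within 20% of the median subunit gene, this share was 19.8%. That set matches the median of 64.4 kb and not each gene, and the 18 include far longer ones, such as Lama2 (639.7 kb) and Itga9 (294.3 kb). Genes with peaks but no promoter peak, such as Itgal and Itgb2, count among the 18 by definition. Length is thus not removed, and the difference was not tested.

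The sequence at the principal TSS, which the choice of genes did not use, differed between the genes with and without a peak there. CpG content was taken as the observed over the expected number of CpGs from 250 bp before to 50 bp after the TSS. The 24 subunit genes with the principal TSS in a peak had a median of 0.606, from 0.2005 at Lama2 to 0.932 at Itga6. The 13 without had a median of 0.277, from 0.0761 at Lamb3 to 0.758 at Itga9. All coding genes showed medians of 0.767 with and 0.203 without, so the order was that of coding genes at large, with a smaller gap.

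The leukocyte chains lay together at the low end, from 0.143 at Itgae to 0.293 at Itgb2. Against the order stood Itga9 (0.758), with a CpG-rich start and no peak there. So did Lama2 (0.2005) and Lamb2 (0.281), with CpG-poor starts inside a peak. Lama1 (0.521) and Itga4 (0.433) also had no peak at the start but lay below the median of 0.553 over all coding genes. Itga11 (0.449) and Lama3 (0.419), at a similar level, had the principal TSS inside a peak. The letters GGGCGG on either strand, the core of a GC box, occurred in 19 of the 37 windows, or 51.4%, beside 45.3% of all coding windows. TATAAA on the gene's strand occurred in 1 window, that of Lama4, or 2.70%, beside 8.89%.

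**Figure D5:**
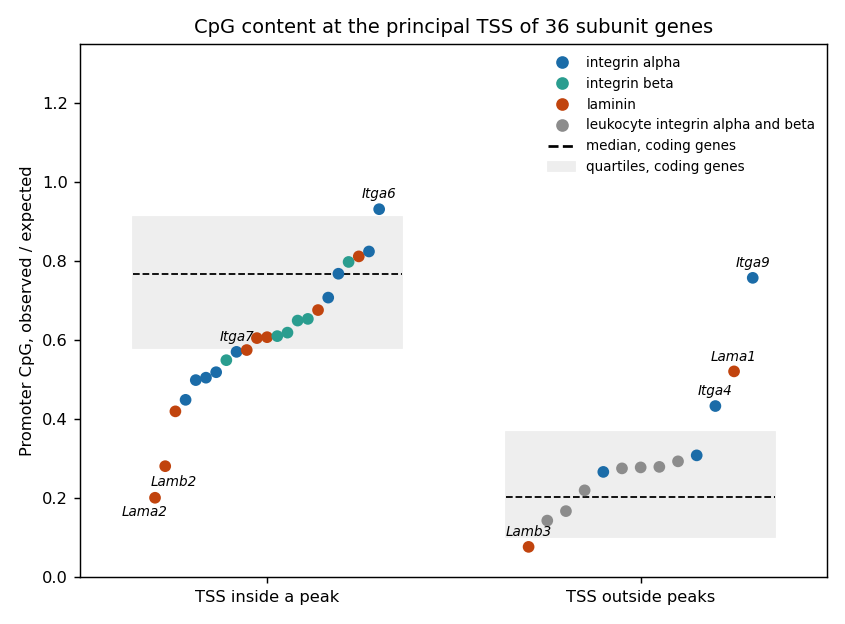
Observed over expected CpG in the 300 bp window at the principal TSS of 36 of the subunit genes (dots, coloured by family), for genes whose principal TSS lies inside (left) or outside (right) a peak, with the median (dashed) and quartiles (grey) of coding genes. The dots on the left run from 0.2005 to 0.932 and those on the right from 0.0761 to 0.758, and Itga9, Lama1 and Itga4 stand above the others on the right.

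Promoter peaks were also counted at the genes whose products act with these subunits. The integrin adhesion complex was taken as 24 genes for the cytoplasmic and membrane partners that link integrins to actin and signalling. Of these, 22 had a promoter peak, or 91.7%, beside 67.8% of all coding genes. One of at least 5 kb occurred in 14, beside 16.5%, and no difference was tested. The widest were at Tln2 (talin 2, 13826 bp), Cd81 (a tetraspanin, 11732 bp), Pxn (paxillin, 9821 bp) and Tns1 (tensin 1, 8940 bp). The narrowest were at Fermt1 (881 bp), Parvb (1123 bp) and Ptk2b (1152 bp). The 2 genes without a promoter peak were Fermt3 and Parvg, the kindlin and the parvin of blood cells. Of 15 matrix ligands and basement membrane partners, 12 had a promoter peak, or 80%, which is near the 67.8% of all coding genes. Widths ran from 452 bp at Spp1 to 14384 bp at Hspg2 (perlecan), with 8348 bp at Dag1 (dystroglycan, the other laminin receptor of muscle). Nid1, Cdh1 and Madcam1 had no promoter peak. Itgb1bp1 and Itgb3bp had a promoter peak, and Itgbl1, Itgb2l and Itgb1bp2, which encode no integrin subunit by the rule used, had none.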

How the data were processed

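H3K56ac and input libraries of Control and Sirt6mKO MuSCs were described by the labels in 4 groups of 2. The intervals were used as deposited. According to the methods, the authors trimmed reads with Trim Galore, aligned them with bowtie to mm10 keeping single alignments, removed duplicates with Picard, called peaks with MACS2, removed blacklisted regions and reduced overlapping peaks to 1 set with GenomicRanges. Merging widens and fuses peaks, so widths describe the union of libraries, and the requirement for a single alignment lowers the chance of a peak in repeats. The deposited score was 0 throughout and was not used. The list held 0 columns of values per sample, so no Sirt6mKO against Control comparison and no test could be made. The reads behind each peak are not in the list, and the library totals that the study states were not used here.

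Coordinates count from 1 on GRCm38, the same build as mm10, and 0 intervals ran past a chromosome end. Genes were the 21938 protein-coding genes of GENCODE vM21 on assembled chromosomes. For each gene the promoter peaks within 3 kb, the widest of them, TSSs inside peaks and the covered percent of the annotated gene were computed with Python 3.11.15, pandas 2.3.3 and NumPy 2.4.6, with functions tested on simulated data. The principal transcript had the best APPRIS principal level, then a CCDS tag. Like length means within 20%. The subunit genes and gene lists were chosen with earlier results of these data known. Subunit genes are named, with coordinates for the 10 widest promoter peaks, the genes without one, Itga7 and Itgb1, except that 1 gene and 1 promoter sequence are not reported here and figures leave that gene out, although counts and medians over the 37 genes include it. The RefSeq promoter table matched 23 of the 37 genes, so sequence was read from the GRCm38 assembly.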

Additional observations from a re-analysis of the deposited data

How the results depend on the processing

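For 8 results (counts, medians and promoter CpG), 51 of 53 alternatives stayed within 1.5 times the reported count or median, or within its interval. This limit is a loose one. A count such as 27 of 37 genes cannot rise to 1.5 times itself, and a change of list moves only 1 gene. The count of leukocyte and platelet subunits was not repeated without Itga2b, the only one of them with a promoter peak. The alternatives were a promoter of 1 kb, other TSS sets, intervals of at least 500 bp, joined intervals, 3 kb added around genes, and the list without Itga2b or with Itgb2l, as well as the principal transcript only or its span and peaks over another coding TSS left out, which were chosen after seeing the data. The exceptions came from joining intervals less than 1 kb apart, which widens peaks by construction. The median widest promoter peak rose to 5235 bp (coding genes 4302.5 bp), and the subunit genes whose widest one reached 5 kb rose to 14, beside 27.8% of coding genes. The subunit median, below that of coding genes as reported, stood above it with joined intervals and, at 3110.5 bp beside 2937 bp, with peaks over another coding TSS left out. With the principal transcript only, 25 genes had a promoter peak and 9 of 11 laminin genes did, because the peaks of Itga9 and Lamb3 lie at other TSSs. No paired analysis was possible because no result comes from a test and intervals have no values per library. The list holds no read depth at any interval, so the absence of a peak does not show the absence of H3K56ac, and a peak may come from either genotype.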
